A study of Mus musculus with 2 samples.

Results

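The activin and inhibin genes are a group of 9 mouse genes, namely the β-subunit genes Inhba, Inhbb, Inhbc and Inhbe, the binding-protein genes Fst and Fstl3, and the receptor genes Acvr1b, Acvr2a and Acvr2b. All probe sets annotated to 1 of these genes alone were taken, which gave 16 of the 34945 single-gene probe sets on the array. The genes had been chosen by the ratio of the antagomir-122 signal to the mm-antagomir-122 signal on these same 2 arrays, where Inhbb stood high, together with its family and receptors, so their values are a description and no test was made of them. A further probe set was annotated to Orc4 and Acvr2a together, had signals of 40.9 in the antagomir-122 pool and 49.5 in the mm-antagomir-122 pool, and was not used for Acvr2a.

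Liver RNA of mice treated with antagomir-122 was compared with that of mice treated with mm-antagomir-122, a scrambled control oligonucleotide. Both received 80 mg/kg of body weight per day on 3 successive days, and livers were taken 24 h after the last dose. An antagomir is a chemically modified oligonucleotide complementary to a microRNA, here the hepatocyte microRNA miR-122. RNA of 3 livers was pooled for each array and 1 array was run per group, so no replicate error exists, no p-value is given, and a difference between animals cannot be told apart from a difference between treatments. No strain, sex, age or untreated group is described by the labels, and the level of miR-122 itself was not analysed here.

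Activins are dimers of inhibin β subunits, secreted by many tissues, which bind a type II receptor (Acvr2a or Acvr2b). That receptor then activates a type I receptor such as Acvr1b, leading to phosphorylation of Smad2 and Smad3. Follistatin (Fst) and the related Fstl3 bind activin outside the cell and block it. Inhbc and Inhbe, which encode the subunits of activin C and activin E, are known for expression in hepatocytes, whereas Inhba and Inhbb encode the subunits of activin A and activin B, which have roles in the gonads, pituitary and other organs. Inhbc and Inhbe lie side by side on chromosome 10, with 0 annotated genes between their starts, and Inhbb lies on chromosome 1.

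The 250 bases before the annotated start are shown for Inhbb and for the hepatic pair Inhbc and Inhbe, because the contrast between these 3 subunit genes is the one the values turn on. The sequences are from RefSeq on GRCm38.p6, each is given 5′ to 3′ on the minus strand on which its gene lies, and capitals mark each CG dinucleotide. The windows are chr1:119422249-119422498 for Inhbb, chr10:127370549-127370798 for Inhbc and chr10:127351849-127352098 for Inhbe.
Inhbb: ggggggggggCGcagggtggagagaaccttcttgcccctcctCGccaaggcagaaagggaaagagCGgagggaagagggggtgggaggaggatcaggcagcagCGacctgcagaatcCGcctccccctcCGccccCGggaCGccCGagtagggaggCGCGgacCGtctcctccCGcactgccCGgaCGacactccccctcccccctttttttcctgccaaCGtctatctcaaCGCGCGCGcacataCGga
Inhbc: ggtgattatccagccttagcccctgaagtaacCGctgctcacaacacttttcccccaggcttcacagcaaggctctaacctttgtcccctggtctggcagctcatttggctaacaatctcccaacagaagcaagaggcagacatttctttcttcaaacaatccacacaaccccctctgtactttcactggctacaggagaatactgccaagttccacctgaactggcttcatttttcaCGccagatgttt
Inhbe: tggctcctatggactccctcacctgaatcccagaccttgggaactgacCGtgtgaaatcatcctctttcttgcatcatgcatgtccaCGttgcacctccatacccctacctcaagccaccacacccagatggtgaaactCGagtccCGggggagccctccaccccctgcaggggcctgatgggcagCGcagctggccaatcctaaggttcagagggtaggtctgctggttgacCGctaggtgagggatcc

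The Inhbb window held 21 CG dinucleotides, more than 83.7% of the 32851 promoter windows of that length, whose median was 6. The window of Inhbc held 2 and that of Inhbe 6. Windows were found for 8 of the 9 genes, all but Fst. Those of the receptor genes Acvr1b, Acvr2a and Acvr2b held 42, 49 and 24, that of Fstl3 held 22 and that of Inhba 3. The letters TATAAA, searched on both strands, were absent from all 3 printed windows and stand in 12.4% of all windows, while CCAAT stood once in the Inhbe window and stands in 33.8% of all windows. CAGAC, the core letters of the Smad-binding element, occurred 2 times in the Inhbc window, 2 times in the Inhbe window and 0 times in the Inhbb window, against a share of 42.2% of all windows with at least 1. These matches describe the letters of the windows only.

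Signals are MAS5 intensities as the authors deposited them. A gene counted as measured when a probe set of it had a mean log2 signal that reached percentile 60 over all probe sets other than controls, a signal of 238, called the floor here. Of the 9 genes, 6 were measured by this rule (Inhba, Inhbb, Inhbc, Inhbe, Acvr1b and Acvr2a), and Fst, Fstl3 and Acvr2b were under it. A size of 1.5-fold on the brightest probe set was used to describe a change, with the words higher and lower taken as antagomir-122 relative to mm-antagomir-122.

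Inhbb was the member gene that differed most. Its brightest probe set read 528.5 in the antagomir-122 pool and 169.6 in the mm-antagomir-122 pool, a log2 ratio of 1.64. The mm-antagomir-122 signal lay under the floor, so the fold is given as a bound, at least 2.22-fold higher. This bound depends on the floor and the scaling chosen, and the floor is not a detection limit. On its own array the antagomir-122 signal stood at percentile 75.7 of all probe sets other than controls, and the mm-antagomir-122 signal at percentile 52.1. Inhbb passed the floor only through the antagomir-122 array, where it was high.

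A second Inhbb probe set, the dimmer, read 184.8 in the antagomir-122 pool and 106.1 in the mm-antagomir-122 pool. It was higher on the same array, but both signals were under the floor and no fold is given for it. Among the 25423 probe sets with both signals under the floor, 57.4% were higher on the antagomir-122 array, so this direction is close to the common one at such signals. The size of the Inhbb difference therefore rests on 1 probe set.

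**Figure D1:**
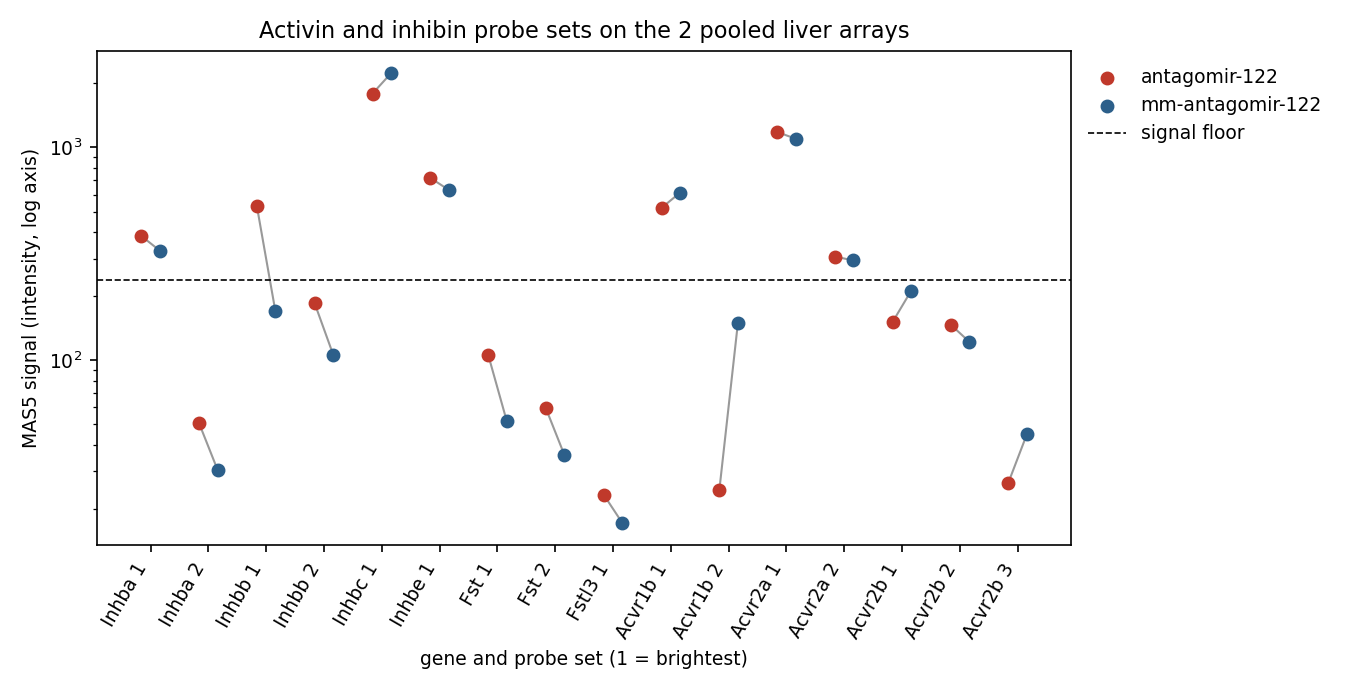
MAS5 signal (log axis) of all 16 probe sets of the activin and inhibin genes, with the antagomir-122 array in red at the left of each pair, the mm-antagomir-122 array in blue at the right, and the signal floor of 238 as a dashed line. Each point is 1 array of RNA pooled from 3 livers; the brightest Inhbb probe set crosses the floor, with 528.5 against 169.6.

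Among the measured genes of the whole array, Inhbb had the ninth largest log2 ratio, since 8 of 10003 genes had a larger one. When readings below the floor were replaced by the floor, its log2 ratio was 1.15 and 33 genes had a larger one. Ratios spread more widely at low signal. A spread of the log2 ratio was taken from the brightest and second probe sets of a gene above the floor. It was the standard deviation of their difference divided by the square root of 2. The spread was 0.28 (0.39 before division) over 3860 genes. Over 588 such genes among the dimmest 3334 measured genes, which include Inhbb, the spread was 0.35 (0.50 before division). This spread includes differences between transcripts of a gene and leaves out differences between animals, and since Inhbb was chosen for its ratio the 2 are not tested against each other. Of these dimmest 3334 genes, 5 had a larger log2 ratio than Inhbb.

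The hepatic subunit genes had ratios on either side of 0, both far below that of Inhbb. Inhbc read 1792.4 in the antagomir-122 pool and 2233.6 in the mm-antagomir-122 pool, a log2 ratio of -0.32, or 1.25-fold lower. Inhbe read 719.5 in the antagomir-122 pool and 631.4 in the mm-antagomir-122 pool, a log2 ratio of 0.19, or 1.14-fold higher. Both genes had 1 probe set, with both signals above the floor, and neither reached 1.5-fold. In size the Inhbc ratio was larger than the probe-set spread of 0.28, which leaves out differences between animals, and the Inhbe ratio was smaller. The Inhbb ratio exceeded that of Inhbc by 1.96 and that of Inhbe by 1.45 on the log2 scale, or by 1.47 and 0.96 with the mm-antagomir-122 signal of Inhbb at the floor. These differences are the readout by which the genes were chosen and are given as a description. Inhbc and Inhbe themselves differed by -0.51, Inhbc minus Inhbe.

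Inhba, the activin A subunit gene, read 383.7 in the antagomir-122 pool and 327.4 in the mm-antagomir-122 pool on its brightest probe set, a log2 ratio of 0.23, or 1.17-fold higher. Its other probe set read 50.5 in the antagomir-122 pool and 30.5 in the mm-antagomir-122 pool, both under the floor. The Inhba ratio on the brightest probe set was thus smaller than the probe-set spread of 0.28.

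**Figure D2:**
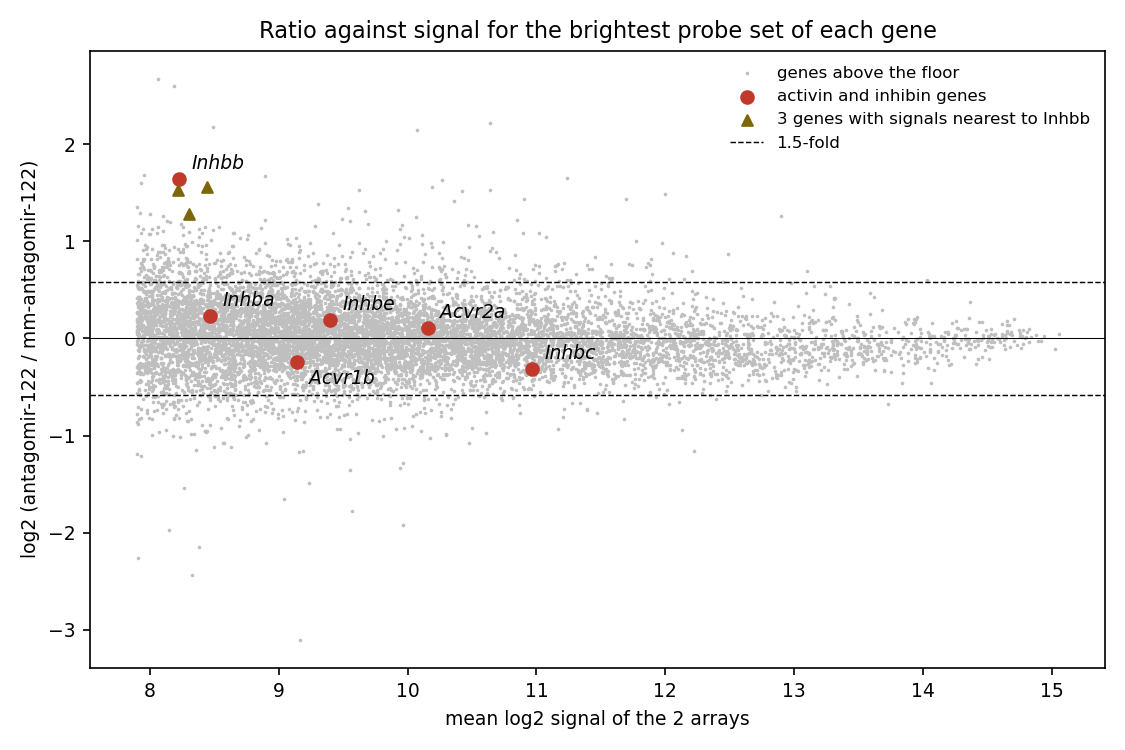
Log2 ratio of the antagomir-122 signal over the mm-antagomir-122 signal against mean log2 signal, for the brightest probe set of each of 10003 genes (grey), with the 6 measured activin and inhibin genes in red and the 3 genes nearest to Inhbb as triangles. Dashed lines mark 1.5-fold; Inhbb lies at 1.64, and the other 5 members lie between -0.32 and 0.23.

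Neither binding-protein gene gave a signal above the floor on either array. Fst read 106.2 in the antagomir-122 pool and 52 in the mm-antagomir-122 pool on one probe set, and 59.3 in the antagomir-122 pool and 35.8 in the mm-antagomir-122 pool on the other. Fstl3 read 23.3 in the antagomir-122 pool and 17.2 in the mm-antagomir-122 pool. All 3 probe sets were higher on the antagomir-122 array, at signals that cannot be told from background without detection calls, so no fold is given. The share higher on that array was 57.4% over the 25423 probe sets with both signals under the floor.

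Receptor genes stayed within 1.5-fold where they could be measured. Acvr2a, a type II receptor, had both of its probe sets above the floor. The brighter read 1182.4 in the antagomir-122 pool and 1099.1 in the mm-antagomir-122 pool, and the dimmer 307 in the antagomir-122 pool and 294.4 in the mm-antagomir-122 pool. Their log2 ratios of 0.11 and 0.06 lay 0.04 apart, which makes Acvr2a the member with 2 concordant measurements and no difference beyond the probe-set spread.

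Acvr1b, a type I receptor for activin, read 520.1 in the antagomir-122 pool and 613.3 in the mm-antagomir-122 pool on its brighter probe set. The log2 ratio was -0.24, or 1.18-fold lower, smaller in size than the probe-set spread of 0.28. Its dimmer probe set read 24.6 in the antagomir-122 pool and 149.2 in the mm-antagomir-122 pool. The gap there is wide, but both signals were under the floor. The 3 probe sets of Acvr2b, the other type II receptor, were also all under the floor and did not go one way. They read 151.8, 147.1 and 26.6 in the antagomir-122 pool, against 212.5, 122.3 and 44.9 in the mm-antagomir-122 pool, so 1 was higher and 2 were lower.

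Over the 6 measured members, 1 was at least 1.5-fold higher, against a background of 5.12% of the 10003 genes, and 0 were at least 1.5-fold lower, against 2.62%. Among the dimmest 3334 genes the background was 8.31% for higher genes and 4.23% for lower genes. The members had been chosen with this contrast known, so nothing is read from their count. Their median log2 ratio was 0.15, and that of the 5 without Inhbb was 0.11, against 0.00 over all measured genes. Of the 16 probe sets, 11 were higher and 5 lower in the antagomir-122 pool, compared with 53.3% higher among all single-gene probe sets, and 9 of the 16 had both signals under the floor.

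The ratios depend on how the arrays are set against each other. Of 18 probe sets for spiked hybridization controls, 17 were lower on the antagomir-122 array, with a median log2 ratio of -0.27. Scaled on them, the median of all genes moved to 0.28, the ratio of Inhbb was 1.91, that of Inhbe 0.46 and that of Inhbc -0.04. Acvr1b then turned from -0.24 to 0.04. Among genes past 1.5-fold, 66.1% were higher as deposited, 96.4% when scaled on these controls and 51.6% with the median of the probe sets, controls left out, at 0. Scaling on these controls or on the median shifts every gene alike, so neither changes the differences between members.

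**Figure D3:**
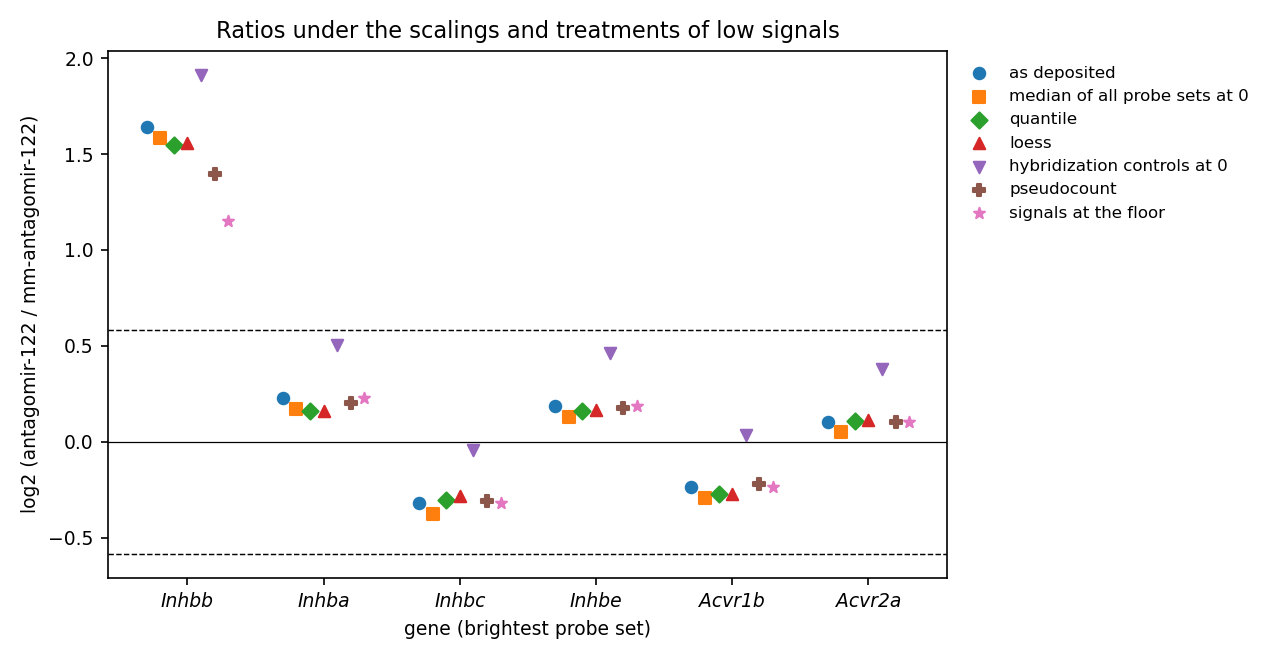
Log2 ratio of antagomir-122 over mm-antagomir-122 for the 6 measured activin and inhibin genes, as deposited and under 6 other scalings or treatments of low signals (symbols), with dashed lines at 1.5-fold. Inhbb lies between 1.15 and 1.91, and the other 5 genes lie between the lines in each setting shown.

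The rest of the pathway was described by a list of 34 genes, of which 32 had a single-gene probe set and 25 were measured. Their median log2 ratio was 0.02, with 14 above 0 and 11 below, against 0.00 over all measured genes. As deposited, 2 passed 1.5-fold upwards and 1 passed it downwards, against the backgrounds of 5.12% and 2.62%.

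The gene that was lower was Smad7, the inhibitory Smad that is itself induced by activin and TGF-β signalling. Its brightest probe set read 798 in the antagomir-122 pool and 1392.3 in the mm-antagomir-122 pool, a log2 ratio of -0.80, or 1.74-fold lower. Both signals were above the floor. Its other probe set, with the suffix _x that marks possible cross-hybridization, read 96 in the antagomir-122 pool and 127.5 in the mm-antagomir-122 pool, both under the floor. Scaled on the hybridization controls the ratio of Smad7 was -0.53, short of 1.5-fold.

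The 2 higher genes were Gdf11 and Nodal, both ligands that signal through activin receptors. Gdf11 read 342.1 in the antagomir-122 pool and 194.2 in the mm-antagomir-122 pool, and Nodal read 350.2 in the antagomir-122 pool and 225.7 in the mm-antagomir-122 pool. Both mm-antagomir-122 signals were under the floor, so the folds are given as bounds, at least 1.44 for Gdf11 and at least 1.47 for Nodal. These bounds lie under 1.5-fold and do not settle whether either gene reaches it. The other Nodal probe set read 36.7 in the antagomir-122 pool and 16.8 in the mm-antagomir-122 pool.

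As deposited, the transducers and other receptors stayed within 1.5-fold on their brightest probe sets. Smad2 and Smad3, the Smads phosphorylated by Acvr1b, had log2 ratios of -0.11 and -0.18. The other Smad2 probe set, with both signals above the floor, had 0.16, so the Smad2 probe sets disagreed in sign. Smad4, the shared partner Smad, had -0.44 on the brightest probe set and 0.20 and -0.26 on the others, so its probe sets disagreed in sign. Acvr1, a type I receptor, had ratios of 0.00, -0.02 and 0.02 on 3 probe sets. Tgfbr1, the type I receptor for TGF-β, had 0.41, Tgfbr2 had 0.09, the co-receptor Tgfbr3 had 0.10 and Bmpr2 had 0.13. Scaled on the hybridization controls, Tgfbr1 had 0.68 and passed 1.5-fold. Another probe set of Bmpr2 was at least 1.82-fold higher and another of Tgfbr1 at least 1.34-fold higher. Each had the mm-antagomir-122 signal under the floor, and for the Tgfbr1 probe set the mean signal was under it too. The dimmest Tgfbr1 probe set was lower, at 210 in the antagomir-122 pool and 233.1 in the mm-antagomir-122 pool, both under the floor. The other Tgfbr3 probe set had both signals above the floor and a log2 ratio of 0.51. Acvr1c had no signal above the floor, and the brighter probe set of Acvrl1 read 239.3 in the antagomir-122 pool and 198.4 in the mm-antagomir-122 pool, with a mean under the floor. Inha, the inhibin α subunit gene, had a log2 ratio of 0.05 at signals of 272.9 in the antagomir-122 pool and 263.2 in the mm-antagomir-122 pool.

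**Figure D4:**
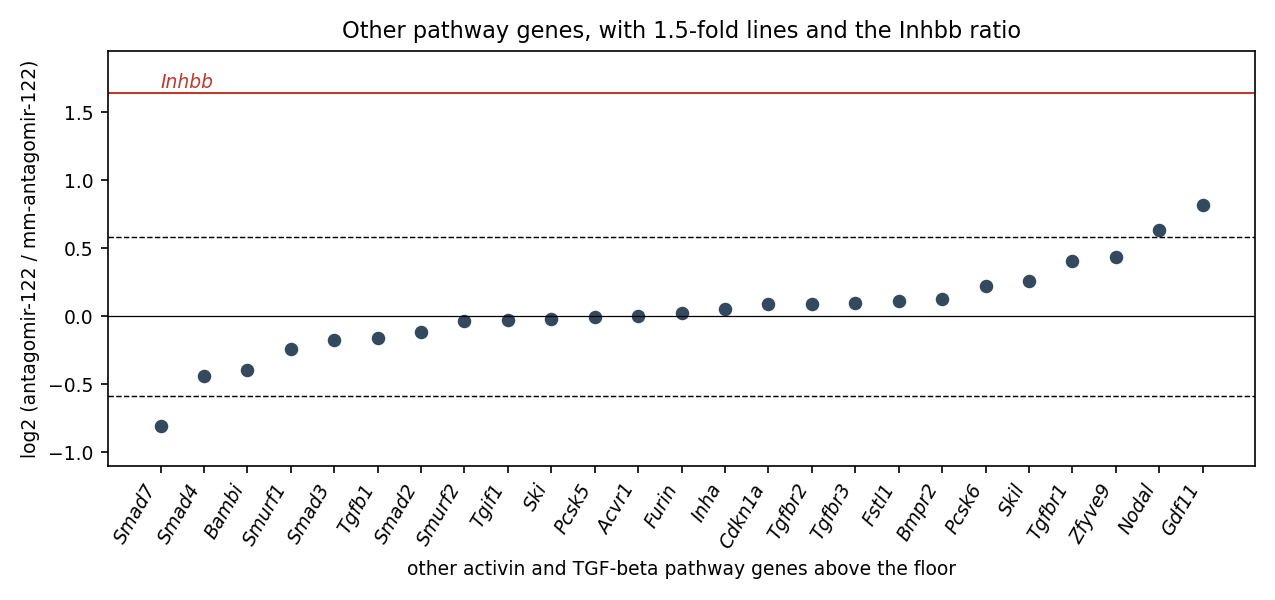
Log2 ratio of antagomir-122 over mm-antagomir-122 on the brightest probe set of the 25 measured genes of the wider activin and TGF-β pathway list, in rising order, with dashed lines at 1.5-fold and the Inhbb ratio of 1.64 in red. Smad7 lies below the lower line at -0.80, and Gdf11 (0.82) and Nodal (0.63) lie above the upper one as deposited.

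By likeness of signal on the 2 arrays, measured as the Euclidean distance of the pair of log2 signals from those of Inhbb, the 3 nearest genes were Tcerg1l, Trim60 and Smo. Tcerg1l read 503.9 in the antagomir-122 pool and 175.3 in the mm-antagomir-122 pool, at a distance of 0.08. Trim60 read 494.3 in the antagomir-122 pool and 203 in the mm-antagomir-122 pool, at a distance of 0.28. Smo, the transducer of Hedgehog signalling, read 598.2 in the antagomir-122 pool and 203.3 in the mm-antagomir-122 pool, at a distance of 0.32. All 3 had the mm-antagomir-122 signal under the floor, as Inhbb did, and likeness over only 2 arrays describes a pair of readings.

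Marker genes of other liver cells differed between the same pools. All 7 hepatocyte markers, Alb and Hnf4a among them, were measured, with a median log2 ratio of -0.02 and summed signals of 158424 in the antagomir-122 pool and 157806 in the mm-antagomir-122 pool. Over all measured genes, 50.3% had a ratio above 0 and 5.12% were at least 1.5-fold higher. Of 7 neutrophil markers 6 were measured, with 5 at least 1.5-fold higher, Elane at a log2 ratio of -0.31, and summed signals of 8013 in the antagomir-122 pool and 2451 in the mm-antagomir-122 pool. All 9 Kupffer cell and macrophage markers were above 0, at summed signals of 58323 in the antagomir-122 pool and 42161 in the mm-antagomir-122 pool, and 2 of them were at least 1.5-fold higher. The 5 measured of 6 lymphocyte markers were also above 0, with 3 at least 1.5-fold higher and summed signals of 6211 in the antagomir-122 pool and 3654 in the mm-antagomir-122 pool. The 7 endothelial and 8 stellate cell and fibroblast markers had medians of 0.02 and 0.08, at summed signals of 8929 and 14217 in the antagomir-122 pool, against 9362 and 12748 in the mm-antagomir-122 pool. Their members went both ways, the endothelial ones from -0.73 (Tek, 1 of 7 at least 1.5-fold lower, against 2.62% of all genes) to 0.28, and the stellate cell and fibroblast ones from -0.56 (Des) to 0.44. By mean signal none of the 4 cholangiocyte markers with a probe set was above the floor, and Camp (neutrophil) and Cd3e (T cell) were under it too. The part of these cell types in the Inhbb difference was not tested, and in whole-liver RNA a change in the number of cells of a type and a change in RNA per cell cannot be told apart.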

How the data were processed

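The arrays were single-colour Affymetrix mouse arrays, 1 for each group, each carrying biotin-labelled cRNA from 3 livers whose RNA was combined into 1 pool, per the labels' protocols. The deposited values are linear signal intensities for 45101 probe sets, for which the submitters' processing notes name MAS5 without a version. The 2% trimmed mean was 500.0 on both arrays, so the authors' intensities had been scaled to 1 target. Medians were 172 on the antagomir-122 array and 156 on the mm-antagomir-122 array. No detection calls were used, and the small number of arrays limits the precision.

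Genes were named from GEO's platform annotation, with symbols updated by gene ID through RefSeq GRCm38.p6 (34741 of 34945 single-gene probe sets matched); 932 probe sets with several genes and 9160 without a name were left out. The log2 ratio of each gene was computed without a pseudocount on its brightest probe set above the floor (16023 probe sets, 10003 genes) in Python 3.11.15 with pandas 2.3.3, and loess used statsmodels 0.14.6 with a span of 0.3. The calculation was tested on simulated data with planted folds and less noise than the probe-set spread. This checked the arithmetic of the deposited, median, quantile and loess settings only. With 1 array in each group no test was possible. Named genes were every member, the pathway list genes past 1.5-fold, the receptors and Smads of that list, and the 3 genes nearest to Inhbb in signal, apart from Riken, Gm, LOC and EST clones. Probe sets of Bmpr2, Tgfbr1, Tgfbr3 and Smad2 other than the brightest, and Inha, were chosen after their values were seen. The members, gene lists and settings were chosen with earlier results of these data known, and the lists were written from general knowledge. List genes for which no probe set was annotated to them alone were not analysed here.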

Additional observations from a re-analysis of the deposited data

How the results depend on the processing

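With 13 alternatives, 131 of 161 recomputed values stayed close to those given (within 0.28 on the log2 scale, or within 1.5 times for counts). This count does not measure stability, since part of it was fixed in advance. Inhbb had 1 probe set above the floor, and averaging was run at that floor only, so averaging probe sets could not move its ratio. A lower floor could not move it either, because the brightest probe set was still the one used. Scaling on the hybridization controls shifted each gene by 0.27, less than the 0.28 allowed. Each member ratio was therefore close by construction there, including that of Acvr1b, which changed sign. The differences of Inhbb from Inhbc and Inhbe could not change there or with the median at 0. Inhbb lay between 1.15 and 1.91 in the 10 settings that gave a value, and its excess lay between 1.47 and 1.96 over Inhbc and between 0.96 and 1.45 over Inhbe. The lowest values, 1.15, 1.47 and 0.96, came when readings below the floor were replaced by it. With the floor at the 80th percentile Inhbb, Inhba and Acvr1b gave no value, and 0 members were at least 1.5-fold higher. With no floor 2 members were, Fst being the addition. Acvr1b changed sign in 1 of its 10 alternatives (0.04, scaled on the hybridization controls), while Inhba, Inhbc, Inhbe and Acvr2a kept their sign in those that gave a value.

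Over all measured genes, the 512 higher and 262 lower became 1693 and 63 scaled on the hybridization controls, 1163 and 532 with the floor at the 40th percentile, 184 and 98 at the 80th, 2770 and 1718 with no floor, 816 and 485 at 1.4-fold, and 83 and 31 at 2-fold. Of the pathway list, the 2 higher genes became 1 with the median at 0, quantile normalization, loess correction or a pseudocount of 50. They became 4 with hybridization controls or no floor, and 0 with the floor at the 80th percentile, signals set to the floor or 2-fold. The 1 lower gene became 0 with hybridization controls or 2-fold, and 2 with the floor at the 40th percentile or none. The settings with another floor or size of change alter by construction what is counted. Scaling on the hybridization controls or on the median shifts every gene alike. Nodal, at 0.63 as deposited, had 0.58 with the median at 0, 0.54 with quantile normalization and 0.54 with loess correction, each short of 1.5-fold. For the remaining changes the cause was not tested. No paired analysis was possible because each group had 1 array. The mm-antagomir-122 signal of Inhbb was under the floor, so its fold is given as a bound, which depends on the floor and scaling chosen.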
